A study of Mus musculus with 4 samples.

Results

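The proteins that make, limit and dissolve blood clots were examined as 37 genes in liver RNA of mice with and without TAK1 in their hepatocytes. The genes were taken by symbol from a list of clotting factors, fibrinogen chains, anticoagulants, fibrinolytic proteins, vitamin K enzymes and receptors. Of the 37 genes 36 had a probe on the array, among 16593 genes in all; Cpb2, which encodes the fibrinolysis inhibitor TAFI, is not analysed here. Where a gene had several probes, the 1 with the highest mean over the 4 arrays stood for it.

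Clotting runs as a chain of proteases. Tissue factor and factor VII start it outside the vessel, contact factors start it on surfaces, and both routes lead through factor X and prothrombin to thrombin, which turns fibrinogen into fibrin. Antithrombin, the protein C system and tissue factor pathway inhibitor hold the chain back, and plasmin, made from plasminogen, dissolves the clot. Hepatocytes secrete most of these plasma proteins, while factor VIII, thrombomodulin and von Willebrand factor come largely from endothelial cells. Several clotting proteases and their regulators work only after the liver has modified them in a vitamin K-dependent reaction.

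Whole liver was measured on Illumina arrays in untreated C57BL/6 mice aged 4 weeks and labelled male, with 2 WT and 2 TAK1 KO samples. Both groups carry the floxed TAK1 gene (Map3k7). TAK1 KO mice also carry Alb-Cre, a recombinase driven by the albumin promoter, so Cre and the loss of TAK1 in hepatocytes differ together. Cells keep the gene where that promoter was never active, in them or in their precursors. TAK1 is a kinase through which inflammatory receptors switch on NF-kB and the stress kinases JNK and p38. Nothing in the labels states that separate mice were used, so p-values measure only the spread between these samples, which may be technical, and 2 arrays a group limit the precision of every value.

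Values are the authors' normalized intensities in arbitrary units. Median intensity lay between 81.5 and 81.9 units on the 4 arrays, and a value at or below 100 units was taken as not well above background. Map3k7 read 155 and 138.4 units in WT against 125.3 and 117.9 units in TAK1 KO (adjusted p = 0.116), and since it is unknown whether its probe lies in the deleted stretch, the reading is no test of the genotype. Xist, an RNA made from the silenced X chromosome of females, read 575 to 853.4 units over the 4 arrays. The Y-linked Kdm5d and Eif2s3y read 53.3 to 69.3 units, not well above background, and these readings and that of Xist go against the male label in both groups. Another Y-linked gene, Uty, read 112.4 to 142.2 units, above 100 units on all 4 arrays, and does not. Of the liver's cell types, hepatocytes were represented by 16 measured markers, all above 100 units on at least 1 array. Albumin itself read only 190.5 to 214.4 units on its probe.

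Clotting genes were more often lower than higher in TAK1 KO liver. Of the 36 measured genes 14 fell and 3 rose (limma, adjusted p below 0.05), and 19 did not pass. Among all genes 7.71% fell and 10.5% rose, and among genes averaging above 100 units 16.1% fell and 20.6% rose. The median log2 difference (TAK1 KO minus WT) was -0.25 over the 36 genes and -0.0036 over all genes. The falls were led by plasma prekallikrein (Klkb1), factor VII (F7), tissue factor pathway inhibitor (Tfpi) and the B subunit of factor XIII (F13b). The rises were in thrombomodulin (Thbd), the thrombin receptor PAR1 (F2r) and the urokinase receptor (Plaur). The 2 groups did not overlap in 27 of the 36 genes, against 53.9% of all genes. Without WT replicate 1 the falls numbered 8, and without WT replicate 2 they numbered 11. Among all genes 1279 fell and 1743 rose, against 759 and 1068 without WT replicate 1 and 765 and 1035 without WT replicate 2.

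**Figure D1:**
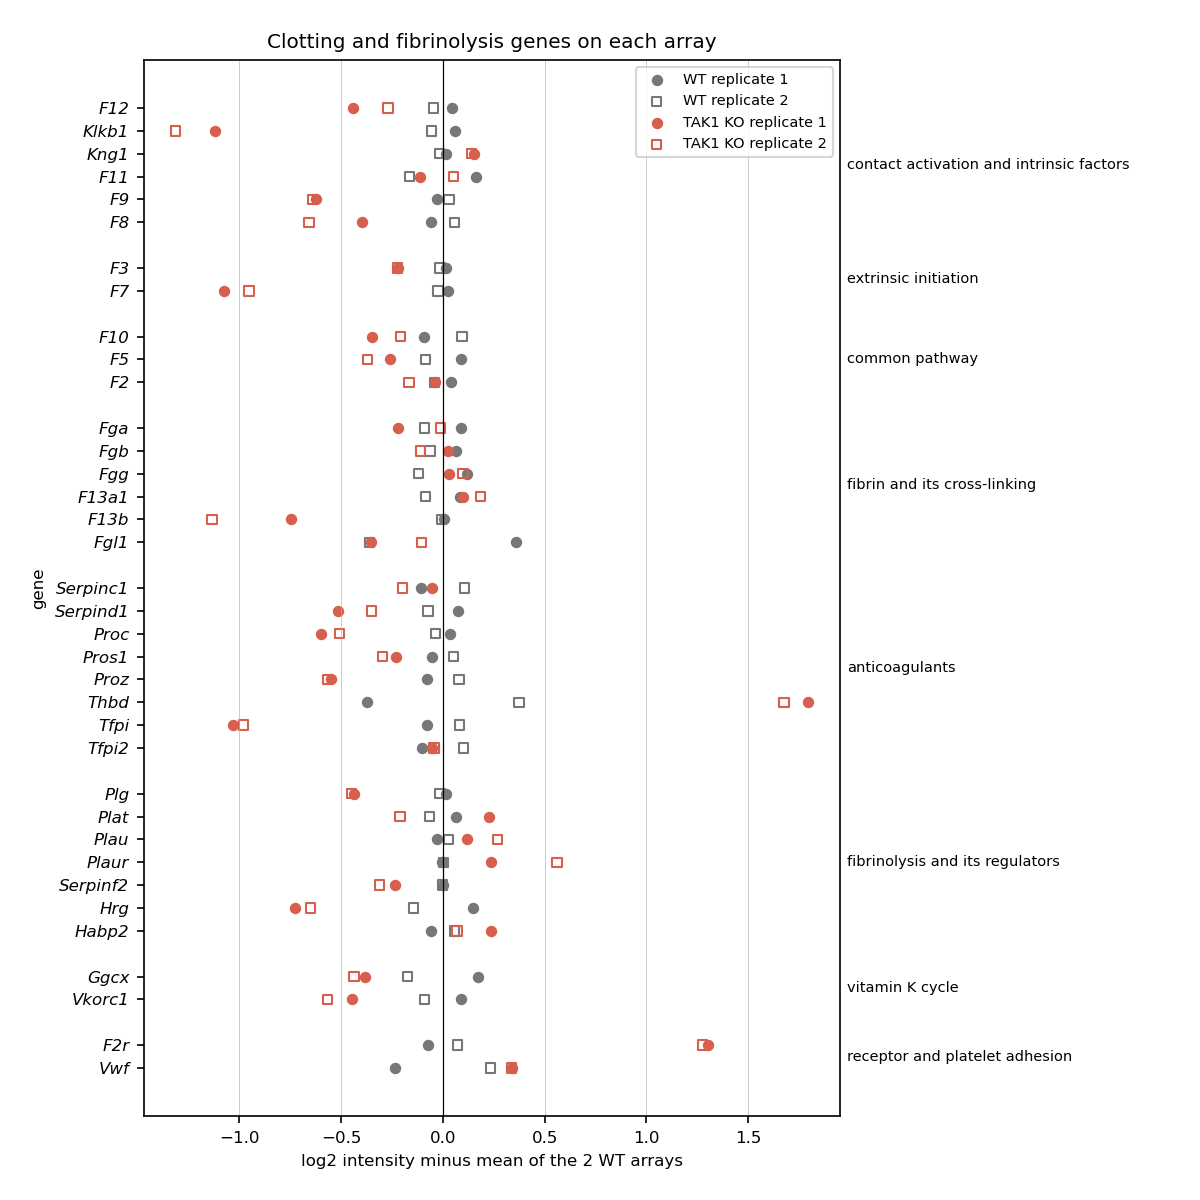
Log2 intensity of each of the 36 measured genes on each array, minus the mean of the 2 WT arrays (x axis), by role (y axis). Grey symbols are WT arrays, red symbols TAK1 KO arrays; the TAK1 KO arrays lie left of both WT arrays for Klkb1, F7, F13b and Tfpi and right of them for Thbd and F2r.

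Of the 23 measured plasma proteins that hepatocytes are known to secrete, 10 fell and 20 had a negative difference, as had 8441 of all 16593 genes. The median of the 23 was -0.28, and 0 of them rose (0 at an unadjusted p below 0.05 in limma's test). The remaining 13 genes, which encode proteins of other cells, receptors or enzymes that stay in the cell, held all 3 rises and 4 falls. In the same livers 5 of 16 hepatocyte markers fell and 1 rose. Among all genes 7.71% fell and 10.5% rose, and among genes averaging above 100 units 16.1% fell and 20.6% rose. Hal and Otc, enzymes of histidine breakdown and the urea cycle, were 2.79-fold and 2.26-fold lower, while Apoa2 was 1.37-fold higher. The 16 markers had a median log2 difference of -0.07, with 9 negative and 7 positive. Their summed level, in which the brightest genes weigh most, was 240530 to 242400 units in WT and 267320 to 277010 units in TAK1 KO. In whole liver, fewer cells of a type and less RNA per cell cannot be told apart.

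Among the factors of the contact and intrinsic route 4 of 6 fell, against 7.71% of all genes and 16.1% of genes averaging above 100 units. Klkb1, whose product plasma kallikrein activates factor XII and frees bradykinin, read 2128.2 and 1964.6 units in WT against 939.2 and 819.9 units in TAK1 KO. Both TAK1 KO arrays were well below both WT arrays, a 2.32-fold fall (log2 -1.22 ± 0.10 SE, n = 2 per group, adjusted p = 8.97e-05). F9, the protease lost in haemophilia B, read 5909 and 6165.8 units in WT against 3910 and 3871.1 units in TAK1 KO. It was 1.55-fold lower (adjusted p = 0.0013), with the arrays of each group close together. F8, the cofactor of factor IX, is made by sinusoidal endothelial cells and read 289.7 and 314.7 units in WT against 228.1 and 189.6 units in TAK1 KO, a 1.44-fold fall (adjusted p = 0.0100). The F8 call depended on both WT arrays, with an adjusted p of 0.0518 without WT replicate 1 and 0.102 without WT replicate 2. F12, the surface-activated protease that starts this route, read 3058.9 and 2874.1 units in WT against 2184.4 and 2457.1 units in TAK1 KO. The groups did not overlap and the 1.28-fold fall passed (adjusted p = 0.0383), but it was lost under 5 of 12 other settings. Its adjusted p was 0.0503 with the replicate block, 0.209 without WT replicate 1, 0.115 without WT replicate 2 and 0.159 without TAK1 KO replicate 1.

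F11 lies next to Klkb1 on chromosome 8 and encodes the closely related factor XI. It read 3449.3 and 2747.1 units in WT against 2846 and 3189.9 units in TAK1 KO. On this brightest probe the groups overlapped, and the log2 difference of -0.03 had a 95% interval of -0.31 to 0.25 (adjusted p = 0.928). A dimmer F11 probe read 186.1 and 147.7 units in WT against 120.1 and 129.2 units in TAK1 KO, lower without overlap (log2 -0.40). It did not pass (limma, all probes fitted together, adjusted p = 0.0543), and neither did the remaining probe (log2 -0.13, adjusted p = 0.621). The mean of the 3 probes gave a log2 difference of -0.19. The interval of the brightest F11 probe does not meet the one of Klkb1, -1.45 to -0.98, although the difference between the neighbours was not tested. The transcription start windows of both genes (300 bases from RefSeq, GRCm38.p6, most of them before the start) are shown. They were chosen because these related neighbours gave such different values on their brightest probes. The Klkb1 window lies at chr8:45294786-45295085 and the F11 window at chr8:45261982-45262281, both on the minus strand, with matches to the motifs named further on in capitals.
Klkb1: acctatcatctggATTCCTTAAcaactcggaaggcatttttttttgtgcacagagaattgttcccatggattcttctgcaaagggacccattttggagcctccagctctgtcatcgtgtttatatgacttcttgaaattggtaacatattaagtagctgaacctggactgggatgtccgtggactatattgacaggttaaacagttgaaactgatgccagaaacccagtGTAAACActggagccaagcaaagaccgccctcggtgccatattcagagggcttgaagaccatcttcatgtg
F11: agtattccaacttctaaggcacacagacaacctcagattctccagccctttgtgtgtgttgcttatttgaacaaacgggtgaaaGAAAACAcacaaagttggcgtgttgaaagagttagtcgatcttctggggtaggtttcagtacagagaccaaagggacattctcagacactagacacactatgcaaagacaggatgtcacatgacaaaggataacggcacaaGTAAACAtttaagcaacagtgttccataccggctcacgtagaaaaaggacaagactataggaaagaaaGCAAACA
The capitals in Klkb1 mark a C/EBP match followed by a FOXA match, and those in F11 mark 3 FOXA matches.

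Kininogen (Kng1), the carrier of prekallikrein and source of bradykinin, gave values that depended on the probe. Its brightest probe read 39474.1 and 38532.4 units in WT against 43410.1 and 42977.8 units in TAK1 KO, a log2 difference of 0.15 ± 0.09 (SE) that did not pass (adjusted p = 0.358). A second probe was 2.03-fold lower in TAK1 KO, at 882.5 and 868.3 units in WT against 487.4 and 378.9 units in TAK1 KO (adjusted p = 0.000558, all probes fitted together). The remaining probe did not pass (log2 -0.19, adjusted p = 0.263), and with quantile normalization added the sign of the brightest probe's difference turned to -0.14. The mean of the 3 probes fell by 0.35 on the log2 scale (adjusted p = 0.0256). Kng2, a near-identical neighbour of Kng1 that its probes could also read, did not pass (log2 -0.20, adjusted p = 0.202), but fell by 0.54 on the log2 scale with the mean of its probes (adjusted p = 0.00343). No direction is therefore given for kininogen.

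The extrinsic route is started by tissue factor (F3) and factor VII. F7, the protease that tissue factor activates, read 972 and 940.7 units in WT against 452.1 and 491.5 units in TAK1 KO. Both TAK1 KO arrays were far below both WT arrays, a 2.02-fold fall (log2 -1.01 ± 0.09 SE, adjusted p = 0.000136). F3 read 55.2 to 65.6 units on all arrays, not well above background, so no difference is given for it.

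In the common pathway 0 of 3 genes passed in limma's test. F10, the protease that makes thrombin, read 5169.2 and 5887.6 units in WT against 4329.6 and 4771.5 units in TAK1 KO, with no overlap (log2 -0.28 ± 0.11 SE, adjusted p = 0.113). F5, its cofactor, read 621 and 550.6 units in WT against 487.6 and 450.8 units in TAK1 KO, again without overlap (log2 -0.32 ± 0.10 SE, adjusted p = 0.0653), and passed only without TAK1 KO replicate 1 (adjusted p = 0.0374) among the settings run. F2, which encodes prothrombin, read 10706.7 and 10126.2 units in WT against 10137.8 and 9270.9 units in TAK1 KO, and the groups overlapped (log2 -0.10, 95% interval -0.32 to 0.12, adjusted p = 0.597). At an unadjusted p of 0.05 in limma's test, F10 and F5 would have passed. So would 2073 of all 16593 genes on the lower side and 2570 on the higher.

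F7, F10 and Proz, which encodes the anticoagulant cofactor protein Z, lie side by side on chromosome 8. Proz read 1297.3 and 1449.9 units in WT against 935.9 and 923.6 units in TAK1 KO, a 1.47-fold fall (adjusted p = 0.0036). The log2 differences along this cluster were thus -1.01 for F7 (95% interval -1.23 to -0.80), -0.28 for F10 (-0.52 to -0.04) and -0.56 for Proz (-0.78 to -0.34), and differences between the 3 genes were not tested. The start windows of F7 and F10 are shown because they gave the largest and the smallest difference of the cluster. Both lie on the plus strand, F7 at chr8:13025784-13026083 and F10 at chr8:13037058-13037357.
F7: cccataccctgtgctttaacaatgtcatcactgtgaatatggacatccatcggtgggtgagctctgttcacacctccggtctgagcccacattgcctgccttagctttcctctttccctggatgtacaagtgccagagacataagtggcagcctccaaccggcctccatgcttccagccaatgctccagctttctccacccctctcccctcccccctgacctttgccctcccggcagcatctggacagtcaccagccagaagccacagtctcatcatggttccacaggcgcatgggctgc
F10: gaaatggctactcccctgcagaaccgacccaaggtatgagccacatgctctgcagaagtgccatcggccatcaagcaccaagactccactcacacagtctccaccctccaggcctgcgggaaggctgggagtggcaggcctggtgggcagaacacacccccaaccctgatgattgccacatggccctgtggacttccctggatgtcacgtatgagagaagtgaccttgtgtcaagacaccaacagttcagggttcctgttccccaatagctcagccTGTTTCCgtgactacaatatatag
The F7 window held no exact match to the 6 motifs searched, and looser forms of these motifs were not searched. The capitals in F10 mark a FOXA match just before the end of the window.

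Fibrinogen, the precursor of fibrin, is built from 3 chains whose genes Fgg, Fga and Fgb are neighbours on chromosome 3. Fga, the alpha chain, read 24669.2 and 21761.3 units in WT against 19893.5 and 22975.5 units in TAK1 KO. Fgg, the gamma chain, read 14252.1 and 12095.6 units in WT against 13385.8 and 14061.3 units in TAK1 KO. On these probes the groups overlapped in both genes. The log2 difference was -0.12 for Fga (95% interval -0.37 to 0.14, adjusted p = 0.607) and 0.06 for Fgg (-0.18 to 0.31, adjusted p = 0.801). The other Fga probe read 24340.4 and 20270.5 units in WT against 18668.8 and 19056.3 units in TAK1 KO, without overlap. It did not pass (log2 -0.24, limma with all probes fitted together, adjusted p = 0.215), and the mean of both Fga probes gave -0.18. The probe of Fgb, the beta chain, read 55 to 62.4 units on all arrays, not well above background, so no difference is given. Whether this probe reads the Fgb transcript is unknown, so the reading does not show that Fgb is silent. Fgl1, a fibrinogen-like protein that hepatocytes secrete, read 7614.1 and 4618.9 units in WT against 4640.7 and 5511 units in TAK1 KO. WT replicate 1 stood above the other arrays, and the gene did not pass (log2 -0.23 ± 0.20 SE, adjusted p = 0.567); its difference was -0.59 without WT replicate 2 (adjusted p = 0.0485) and 0.13 without WT replicate 1.

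Factor XIII cross-links fibrin and circulates as catalytic A and carrier B subunits. F13b, the carrier subunit made by hepatocytes, read 2859.9 and 2836.4 units in WT against 1695.3 and 1294.7 units in TAK1 KO. The WT arrays were nearly equal and both TAK1 KO arrays lower, a 1.92-fold fall (log2 -0.94 ± 0.13 SE, adjusted p = 0.00101). F13a1, the catalytic subunit of macrophages and platelets, read 50.3 to 61.3 units, not well above background.

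**Figure D2:**
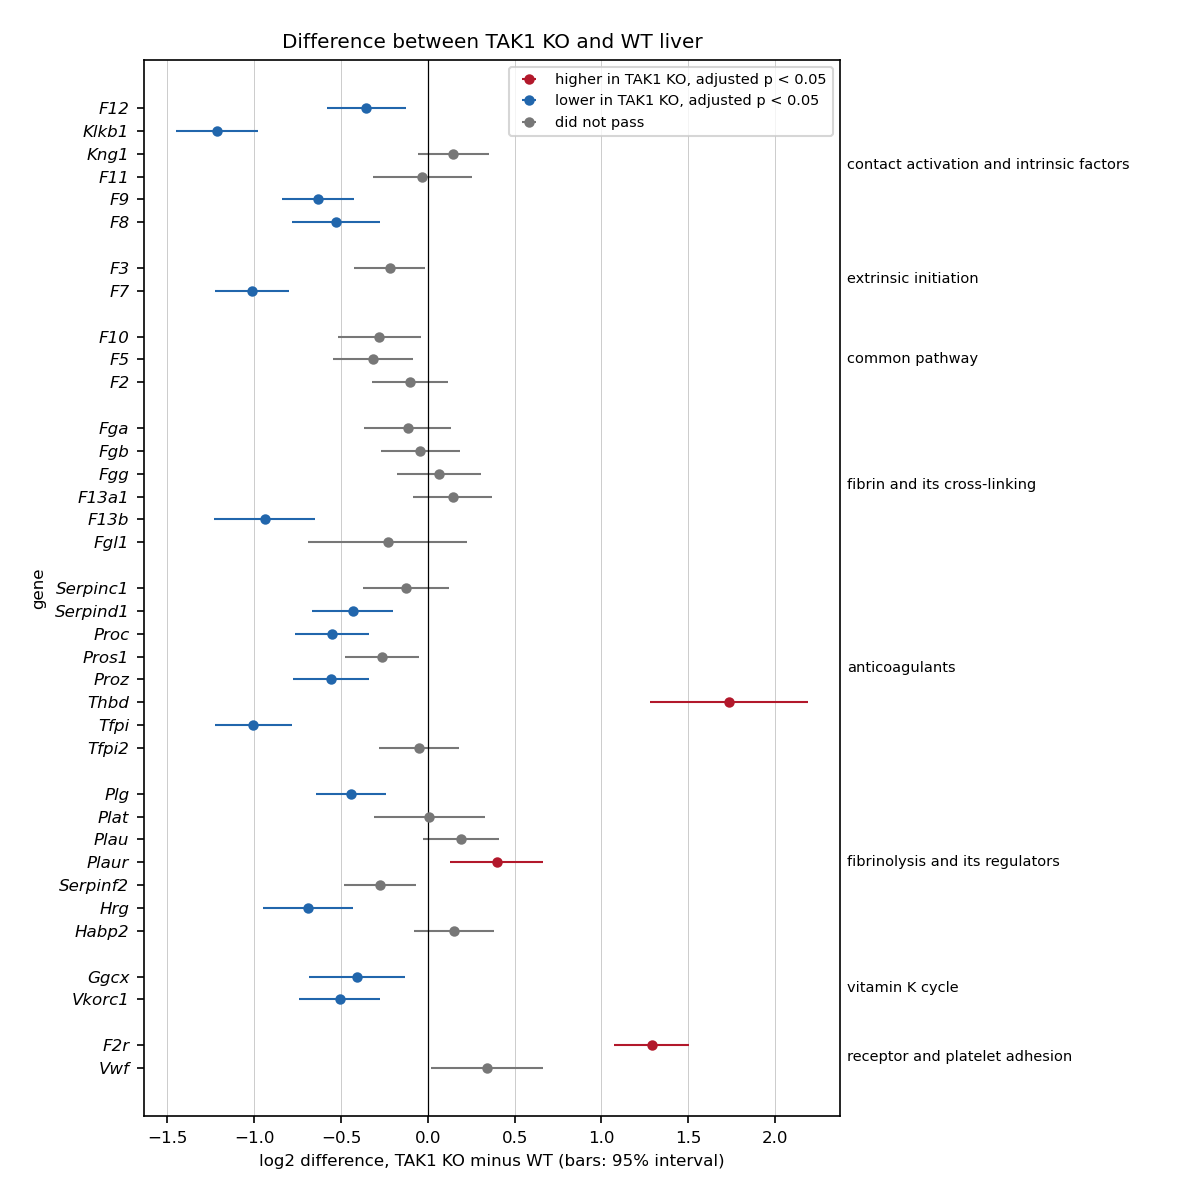
Log2 difference between TAK1 KO and WT (x axis) with its 95% interval for the 36 measured genes, by role (y axis). Blue marks the 14 genes that fell, red the 3 that rose and grey the 19 that did not pass; F2, Fga, Fgg and Serpinc1 lie near 0.

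Among the 8 anticoagulant genes 4 fell and 1 rose, while 7.71% of all genes fell and 10.5% rose. Of genes averaging above 100 units 16.1% fell and 20.6% rose. Tfpi, the inhibitor of tissue factor and factor VIIa, read 226.9 and 254.7 units in WT against 115.4 and 119.5 units in TAK1 KO on its brightest probe. Every TAK1 KO array was below every WT array, a 2.01-fold fall (log2 -1.01 ± 0.10 SE, adjusted p = 0.000165). A second Tfpi probe read 149 and 153.5 units in WT against 153.8 and 131.3 units in TAK1 KO and did not pass (log2 -0.09, adjusted p = 0.711), and the remaining probe lay below 100 units on all arrays. The mean of the 3 probes fell by 0.37 on the log2 scale. Tfpi2, a related inhibitor, read 58.7 to 68.8 units, not well above background.

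Proc encodes protein C, which destroys factors V and VIII. It read 7386.4 and 7017.7 units in WT against 4757.7 and 5065.9 units in TAK1 KO, a 1.47-fold fall with no overlap (adjusted p = 0.00315), and its other probe fell 1.72-fold. Pros1, which encodes its cofactor protein S, read 1218.3 and 1309.3 units in WT against 1075.5 and 1026.8 units in TAK1 KO. Its arrays did not overlap either, but it did not pass (log2 -0.26 ± 0.09 SE, adjusted p = 0.0931). Serpind1, which encodes the thrombin inhibitor heparin cofactor II, read 4134.1 and 3736.5 units in WT against 2749.4 and 3077.9 units in TAK1 KO. It fell 1.35-fold (adjusted p = 0.0179), but missed the threshold without WT replicate 1 (0.145), without WT replicate 2 (0.0548) and with a smaller background offset. Serpinc1, which encodes antithrombin, the main inhibitor of thrombin and factor Xa, read 3383.4 and 3918.4 units in WT against 3512.3 and 3170.4 units in TAK1 KO. Its groups overlapped (log2 -0.13, 95% interval -0.37 to 0.12, adjusted p = 0.555).

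Thbd went the other way. Thrombomodulin, the endothelial receptor that makes thrombin activate protein C, read 215.9 and 366.2 units in WT against 988.6 and 909.6 units in TAK1 KO. Although the WT arrays differed from each other, both TAK1 KO arrays were far above them, a 3.33-fold rise (log2 1.74 ± 0.20 SE, adjusted p = 0.000424). Of 19 measured endothelial markers 0 rose and 3 fell in limma's test (2 higher and 5 lower at an unadjusted p below 0.05). Among genes averaging above 100 units 20.6% rose and 16.1% fell. The markers had a median log2 difference of 0.0038. Their summed level was 13245 to 13382 units in WT and 13407 to 13511 units in TAK1 KO. The 3 markers that fell were Lyve1, Ehd3 and Oit3, of sinusoidal endothelium, by 1.60-fold, 1.42-fold and 1.27-fold. Other markers of sinusoidal endothelium did not pass and were slightly on the higher side. These were Clec4g (log2 0.21), Gpr182 (0.07), Fcgr2b (0.07) and Stab1 (0.07). Macrophage and stellate markers rose, as given for F2r. Their part in the rise of Thbd was not tested.

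In fibrinolysis 2 of 7 measured genes fell and 1 rose. Among all genes 7.71% fell and 10.5% rose, and among genes averaging above 100 units 16.1% fell and 20.6% rose. Plg encodes plasminogen, the precursor of the clot-dissolving protease plasmin, and read 12945.5 and 12681.6 units in WT against 9456 and 9382.8 units in TAK1 KO. The replicates were close together and the 1.36-fold fall passed (adjusted p = 0.00786). Both other Plg probes fell as well, by 1.83-fold and 1.48-fold; on the brightest probe the adjusted p was 0.0651 without WT replicate 1, 0.0532 without WT replicate 2 and 0.0660 with a background offset of 16. Hrg, a histidine-rich plasma glycoprotein that binds plasminogen and heparin, read 3634.9 and 2970 units in WT against 1986.8 and 2090.5 units in TAK1 KO. It fell 1.61-fold (adjusted p = 0.00287), and 2.44-fold on its other probe.

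Serpinf2, which encodes the plasmin inhibitor alpha-2-antiplasmin, read 7596.9 and 7591.9 units in WT against 6440.7 and 6123.4 units in TAK1 KO, with no overlap. It did not pass (log2 -0.27 ± 0.09 SE, adjusted p = 0.0732), although the mean of its 3 probes did (adjusted p = 0.0333). Habp2, a protease that can activate factor VII and urokinase, read 2440.2 and 2644.1 units in WT against 2990.3 and 2665.4 units in TAK1 KO and did not pass (log2 0.15, adjusted p = 0.413); its other probes gave the opposite sign. Plaur, the cell-surface receptor for urokinase, read 88.4 and 89.4 units in WT against 105.6 and 133.2 units in TAK1 KO. With both WT arrays below 100 units it was at least 1.18-fold higher (adjusted p = 0.0473), and it missed the threshold under 6 of 12 other settings, among them those without TAK1 KO replicate 2 (adjusted p = 0.257), without WT replicate 1 (0.203) and without WT replicate 2 (0.199). The plasminogen activators Plat and Plau read 58.9 to 81.6 and 80.4 to 100 units, not above 100 units on any array, and are given no difference.

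The vitamin K-dependent modification is carried by the products of 7 of the genes, all 7 with a negative difference. A negative difference was found in 26 of the 36 measured clotting genes and in 8441 of all 16593 genes. F7, F9, Proz and Proc fell, by 2.02-fold, 1.55-fold, 1.47-fold and 1.47-fold, while F10, Pros1 and F2 did not pass. Both enzymes of the vitamin K cycle fell too, 1 of them only near the threshold. Vkorc1, the reductase that regenerates vitamin K and is the target of warfarin, read 6532.8 and 5756.7 units in WT against 4492.5 and 4141.7 units in TAK1 KO. It was 1.42-fold lower (adjusted p = 0.00808; 0.0866 without WT replicate 1), and its other probes fell by 1.78-fold and 1.53-fold. Ggcx, the carboxylase that modifies the clotting factors, read 626.4 and 492.7 units in WT against 425.2 and 409.2 units in TAK1 KO. Its 1.33-fold fall was near the threshold (adjusted p = 0.0476) and was lost under 5 of 12 other settings, with a log2 difference of -0.24 in place of -0.41 and an adjusted p of 0.292 without WT replicate 1. With all probes fitted together this Ggcx probe had an adjusted p of 0.0506, and its other probes, 1.18-fold and 1.15-fold lower, did not pass (0.150 and 0.193).

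F2r encodes PAR1, the receptor through which thrombin acts on endothelial and mesenchymal cells; in the mouse, platelets use other members of its family. It read 2017.6 and 2231.3 units in WT against 5232.7 and 5147.2 units in TAK1 KO. Both TAK1 KO arrays were far above both WT arrays, a 2.44-fold rise (log2 1.29 ± 0.10 SE, adjusted p = 4.17e-05). The related receptors F2rl2 and F2rl3 read 61 to 68 and 55.2 to 71.6 units, not well above background. In the same livers 14 of 19 markers of stellate cells and fibroblasts rose, against 10.5% of all genes and 20.6% of genes averaging above 100 units. The stellate markers had a median log2 difference of 0.90. Their summed level was 13567 to 14422 units in WT and 29342 to 35071 units in TAK1 KO. Acta2, the actin of contractile stellate cells, rose 4.15-fold and Dcn, the proteoglycan decorin, 1.87-fold. Of 18 macrophage and monocyte markers 11 rose and 1, Cd163, fell (median 0.65; summed level 8294.9 to 9402.3 units in WT and 15880 to 16614 units in TAK1 KO). The part of these cells in the rises of F2r and Plaur was not tested.

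Vwf, the adhesive protein of endothelium and platelets, read 128.4 and 179.7 units in WT against 193.7 and 193.2 units in TAK1 KO. It did not pass (log2 0.34 ± 0.14 SE, adjusted p = 0.157) except without WT replicate 2 (adjusted p = 0.0265). Of 11 platelet markers 1, Pf4, rose, and 7 lay at or below 100 units on all arrays. Their summed level was 962.8 to 1037.7 units in WT and 1049.7 to 1104.7 units in TAK1 KO. Neutrophil markers rose in 4 of 11 cases and bile duct markers in 2 of 7, against 10.5% of all genes and 20.6% of genes averaging above 100 units.

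The F2r start window is shown because this gene had the larger of the 2 rises for which a RefSeq window was matched. It lies on the minus strand at chr13:95618417-95618716.
F2r: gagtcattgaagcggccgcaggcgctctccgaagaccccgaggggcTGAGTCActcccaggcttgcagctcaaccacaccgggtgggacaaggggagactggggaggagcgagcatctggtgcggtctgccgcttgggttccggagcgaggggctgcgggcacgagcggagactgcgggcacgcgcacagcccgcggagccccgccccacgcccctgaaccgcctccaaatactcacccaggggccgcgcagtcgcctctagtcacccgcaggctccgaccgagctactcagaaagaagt
Short motifs of 6 factors known from liver or downstream of TAK1 were searched on both strands, and the capitals in F2r mark an AP-1 match. Windows were matched for 29 of the 37 genes, of which 12 fell and 2 rose. TGANTCA (AP-1) occurred in the windows of 7 of the 29 genes, or 24.1%, against 8.97% of 27025 genes; these were F2, F2r, F3, Fgb, Hrg, Plaur and Tfpi2. Of these, F3, Fgb and Tfpi2 read at or below 100 units on all arrays, Hrg fell, F2r and Plaur rose, and F2 did not pass. GGANTTTCC (NF-kB) occurred in 3 of the 29, or 10.3%, against 1.45% of all genes. These were F13a1, F3 and Tfpi2, all at or below 100 units on all arrays, so no change is given for any of them. CAAAGTCCA (HNF4) occurred in 0 of the 29 against 0.555%, and GTTAATNA (HNF1) in 3, or 10.3%, against 2.98%. TTNNGNAAT (C/EBP) occurred in 8, or 27.6%, against 13.1%, and TGTTTNC (FOXA) in 9, or 31.0%, against 22.8%. No 2 of these motifs overlapped in the windows printed. A match describes letters only, and the motifs were chosen after the values had been seen. Looser forms of each motif were not searched, so a window without a match may still hold a site of that factor.

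**Figure D3:**
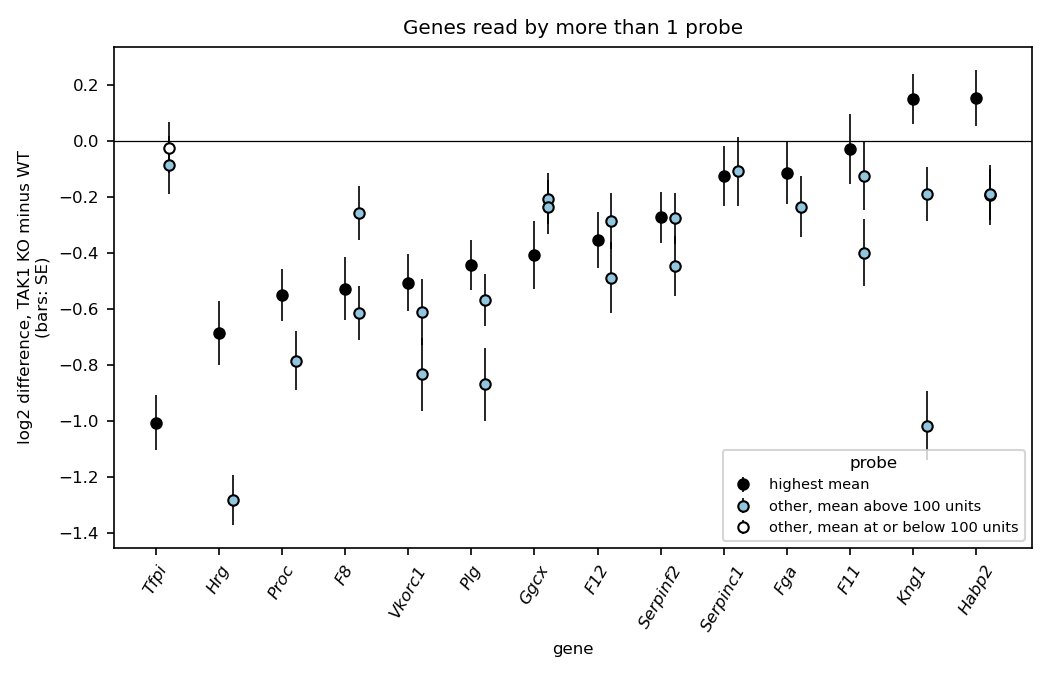
Log2 difference between TAK1 KO and WT (y axis, bars are SE) for every probe of the 14 genes with more than 1 probe (x axis). Black points are the probes with the highest mean; the probes of Tfpi and Kng1 stand far apart from each other, while those of Plg, Proc, Hrg and Vkorc1 all lie below 0.

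Of the 36 genes 14 had several probes. In 6 of these 14 another probe above 100 units, with all probes fitted together, differed from the reported result in passing or not passing, namely F12, F8, Ggcx, Kng1, Serpinf2 and Tfpi, and in 0 genes did 2 probes pass in opposite directions. For Kng1 and Habp2 other probes had the opposite sign. Another 22 genes rest on 1 probe each, among them Klkb1, F7, F9, F13b, Thbd and F2r.

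A wider list held 54 other genes of clotting regulation, platelets, vitamin K and protein clearance. Of these 48 were measured, and 13 of the 48 lay at or below 100 units on all arrays. In limma's test 13 rose and 7 fell, with a median log2 difference of -0.0039. Among all genes 10.5% rose and 7.71% fell, and among genes averaging above 100 units 20.6% rose and 16.1% fell. Fewer falls passed without WT replicate 1. The falls included both subunits of carboxypeptidase N, the enzyme that inactivates kinins. Cpn2 read 209.9 and 209.6 units in WT against 118.9 and 128 units in TAK1 KO (1.68-fold lower), and Cpn1 was 1.61-fold lower. Serping1, which encodes the C1 inhibitor of kallikrein and factor XIIa, fell 1.46-fold, from 6454.7 and 6040 to 4026 and 4509.6 units. Asgr2, a subunit of the hepatocyte receptor that clears desialylated glycoproteins, fell 1.44-fold, Tmprss6, a hepatocyte membrane protease, 1.37-fold, and Apoh, a phospholipid-binding plasma protein, 1.37-fold. Without WT replicate 1 the falls of Serping1 (adjusted p = 0.0557) and Tmprss6 (0.149) did not pass, and without WT replicate 2 those of Asgr2 (0.0582) and Apoh (0.169) did not. Serpina10, which encodes the protein Z-dependent inhibitor that works with Proz, did not pass and was on the higher side, at 5801 and 5309.6 units in WT against 6623.5 and 7111.9 units in TAK1 KO (adjusted p = 0.0619; 0.0451 without TAK1 KO replicate 1 and 0.0382 with quantile normalization added). Vkorc1l1, the paralogue of Vkorc1, did not pass either (log2 0.27, adjusted p = 0.159).

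The rises were led by Anxa2, which with S100a10 forms a cell-surface receptor for plasminogen and its activator. Anxa2 read 1229.6 and 1428.4 units in WT against 8882.3 and 11387.4 units in TAK1 KO, a 7.57-fold rise (adjusted p = 3.49e-06), and S100a10 rose 1.73-fold. Mgp, a vitamin K-dependent inhibitor of calcification, rose 5.07-fold, from 176.4 and 209.3 to 1330.5 and 740.8 units. Anxa5, which binds the phosphatidylserine on which clotting factors assemble, rose 3.53-fold, the intracellular protease inhibitor Serpinb6a 2.74-fold and Tbxas1, thromboxane synthase, 2.13-fold. Ptgis, prostacyclin synthase, was at least 1.73-fold higher, with both WT arrays below 100 units, and had an adjusted p of 0.0501 without WT replicate 2. Stellate and macrophage markers rose in these livers, at medians of 0.90 and 0.65, and their part in these rises was not tested.

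**Figure D4:**
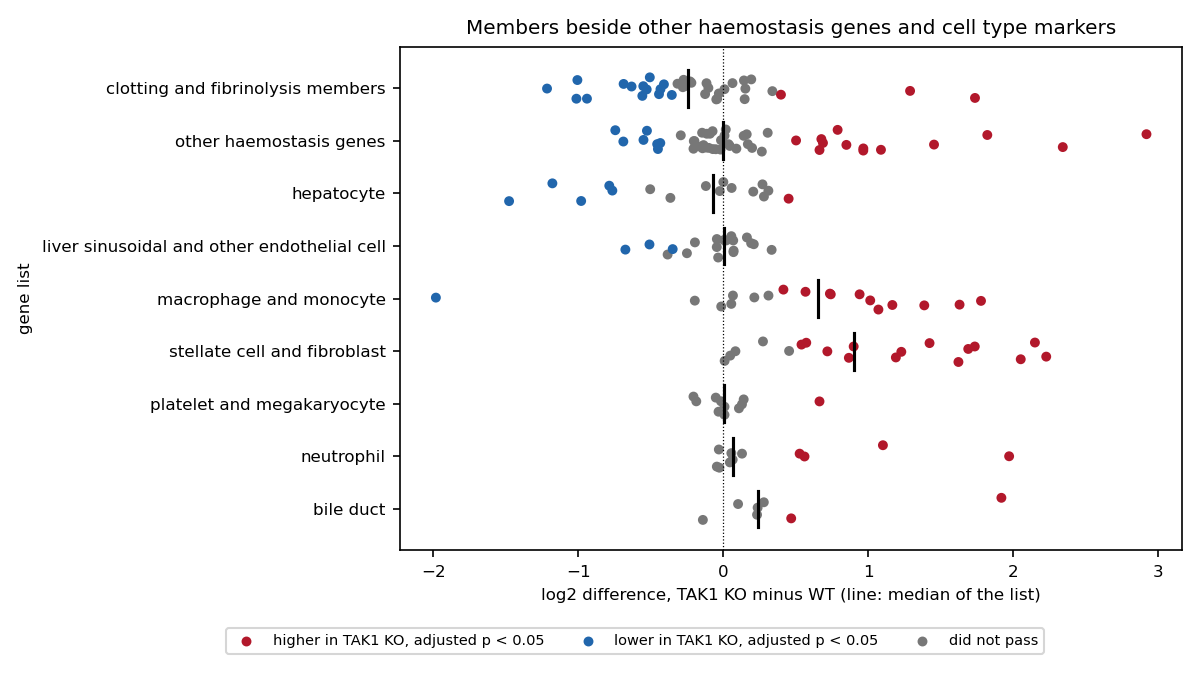
Log2 difference between TAK1 KO and WT (x axis) for each gene of the clotting list, the wider haemostasis list and 7 lists of cell type markers (y axis); the vertical line is each list's median. The clotting list has its median at -0.25, the stellate list at 0.90 and the macrophage list at 0.65.

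Of the 17 clotting genes that passed, 10 did so under all 12 other settings run: Klkb1, F9, F7, F13b, Proc, Proz, Tfpi, Hrg, Thbd and F2r. The other 7, which were F12, F8, Serpind1, Plg, Vkorc1, Ggcx and Plaur, missed the threshold under at least 1 setting while keeping their direction. Of the genes that did not pass, 4 passed in the same direction under 1 setting each, namely F5, Fgl1, Serpinf2 and Vwf, and Kng1 passed in the opposite direction under 1.

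**Figure D5:**
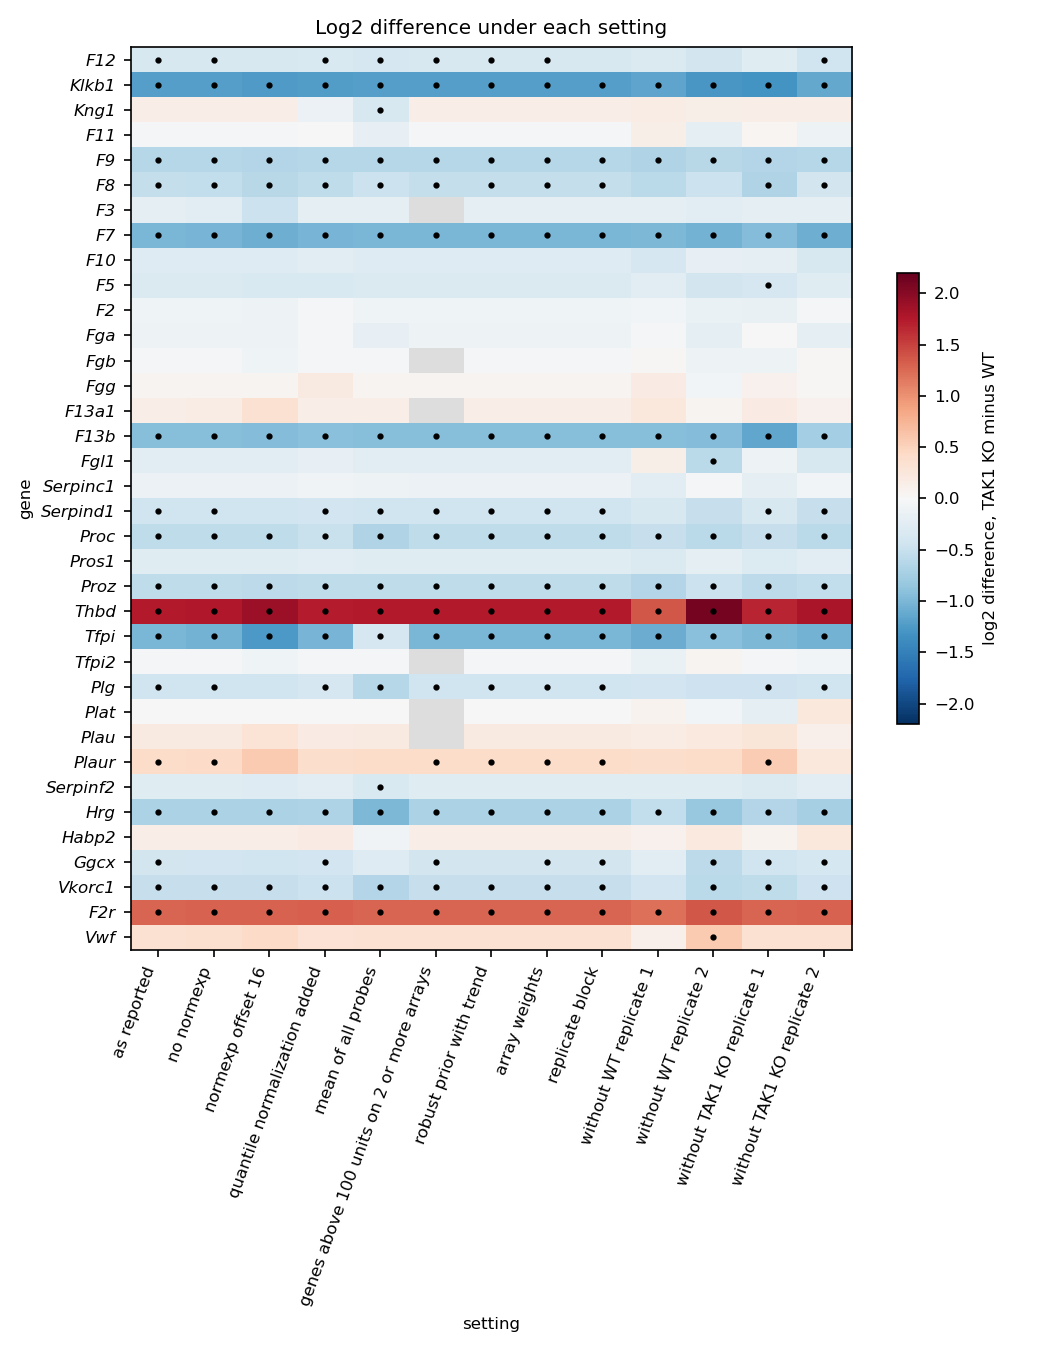
Log2 difference between TAK1 KO and WT (colour) for the 36 measured genes (y axis) under the reported setting and the 12 others (x axis). A dot marks an adjusted p below 0.05 and light grey a gene left out by the filter on dim probes; 10 genes carry a dot in every column.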

How the data were processed

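RNA of 4 liver samples was hybridised to 1 Illumina array each, and groups come from the sample titles. The authors deposited linear probe intensity values for 25697 probes, already normalized between arrays, as their near-equal medians show; how they normalized them is not stated in the labels, and no detection p was used. The 4 columns of a second table, not normalized, could not be tied to samples by name and were left out.

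Intensities were background-corrected with limma's normexp (offset 50) and put on the log2 scale, so fold changes of dim genes are understated. Probes were named by the platform annotation with symbols updated through RefSeq (GRCm38.p6); 23978 probes had 1 gene, 0 several and 1719 none. For a gene at or below 100 units on both arrays of 1 group, a lower bound ("at least N-fold") sets dim values to the lowest value above 100 units on that array. Groups were compared over all 16593 genes with limma 3.58.1 in R 4.3.3 (lmFit, eBayes, two-sided, 2 residual and 6.85 prior degrees of freedom) and Benjamini-Hochberg adjustment over all genes at 0.05. Other probes were fitted together in a further run over all named probes, added after the data were seen. The procedure was tested on simulated data. Exact permutation was not used, since it cannot reach 0.05 with 2 arrays a group. No batch is named in the labels.

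The genes and lists were chosen with earlier results of these data known, and so was the floor of 100 units. All 37 genes were to be named, with up to 6 rises and 6 falls of the wider list; S100a10, Serpina10, Vkorc1l1, Kng2, F2rl2, F2rl3 and the markers named were added after their values were seen. Alternatives covered the background correction, its offset, normalization, probe choice, a filter on dim probes, the variance prior, array weights, the replicate number as a block and leaving out each array. The replicate numbers do not mark pairs in the labels.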

Additional observations from a re-analysis of the deposited data

How the results depend on the processing

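Of the 36 clotting genes 6 lay at or below 100 units on all arrays, where the signal over background limits any statement on direction. The count of clotting genes that fell was 14 and ranged from 8 to 14 when 1 array was left out, with 8 without WT replicate 1; the count that rose ranged from 2 to 3. With an offset of 16, 10 clotting genes fell and 2 rose, and with the mean of all probes 15 fell and 2 rose. The median log2 difference of the clotting genes, -0.247, became -0.2738 with an offset of 16 and -0.2718 with the mean of all probes. It was -0.2977 among genes above 100 units on 2 or more arrays, and ranged from -0.2344 to -0.2166 when 1 array was left out. Falls in the wider haemostasis list numbered 4 in place of 7 with an offset of 16 and ranged from 4 to 7 when 1 array was left out; its rises ranged from 9 to 13. Among all genes the rises ranged from 1035 to 1875 and the falls from 759 to 1429 when 1 array was left out. The mean of all probes turned the difference of Kng1 from 0.15 to -0.3545 (adjusted p = 0.02558), since its probes disagree. With the replicate block 13 clotting genes fell and 3 rose; deviations of same-numbered arrays correlated at 0.0453 across genes, and the numbers mark no pairs in the labels. The block moved F12 to an adjusted p of 0.0503 and changed no other call among the clotting genes. Among the 18 named genes of the wider list, the calls of Ptgis, Serping1, Asgr2, Tmprss6 and Apoh each missed the threshold under 1 to 3 settings, Serpina10 passed under 2 and Kng2 under 1, and no direction turned under the settings run for each.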
